A study of Mus musculus with 12 samples.

Results

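The genes that encode the proteins of the cytosolic ribosome were followed in mouse embryonic fibroblasts (MEFs, connective tissue cells grown from embryos) that lacked Trex1, STING, both or neither and were given the carcinogen DMBA. Genes were taken by the array's symbols (Rpl or Rps followed by a number, with the paralog suffixes, together with Rplp0, Rplp1, Rplp2 and Rpsa), which gave 61 genes on 90 probes. Of these, 55 genes had a probe detected on at least 2 of the 12 arrays and were tested, out of 10142 genes with such a probe. They divide into 33 genes of the large (60S) subunit and 22 genes of the small (40S) subunit, and each is represented by its probe of highest mean signal, called its main probe here. All 11 probes that were left out were detected on 0 arrays, and 6 genes had no other probe: Rpl17, Rpl3l, Rpl6, Rps20, Rps23 and Rpsa. In RefSeq 54 of the 55 tested genes are protein coding, and Rps4l is a transcribed pseudogene.

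RNA was measured on 12 Illumina mouse bead arrays, 1 for each genotype and treatment. The cells came from embryos of day 13.5 on a C57BL6/129Sv background and were of 4 genotypes: TKO (Sting +/+ Trex1 -/-), SKO (Sting -/- Trex1 +/+), STKO (Sting -/- Trex1 -/-) and WT (Sting +/+ Trex1 +/+). STING is the adaptor that links cytosolic DNA sensing to interferon genes, and TREX1 is an exonuclease that degrades cytosolic DNA. DMBA is 7,12-dimethylbenz[a]anthracene, a polycyclic hydrocarbon whose metabolites form DNA adducts, and each genotype received 20 µg/ml of it for 24 h or 48 h, or its solvent DMSO. No source used here states how long the DMSO cultures were kept, and an effect of DMBA therefore cannot be told apart from one of culture time. The labels name neither separate embryos nor separate cultures within a genotype, so culture and genotype cannot be told apart either, and p-values measure only the spread between these arrays, which may be technical.

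A ribosome is built from ribosomal RNAs and a fixed set of ribosomal proteins in nearly equal numbers, and growing cells spend much of their transcription on these genes. The mRNAs of most ribosomal proteins begin with a run of pyrimidines (C and T), the 5′ terminal oligopyrimidine or TOP motif, through which mTOR signalling sets how strongly they are translated. When ribosome assembly is disturbed, free ribosomal proteins such as RPL5 and RPL11 bind MDM2 and stabilise p53. Neither Rpl5 nor Rpl11 is among the 61 genes taken here, so they were not read. A few ribosomal proteins have paralogs encoded by separate genes, among them Rpl22l1 (paralog of Rpl22), Rpl39l (of Rpl39), Rpl7l1 (of Rpl7) and Rps27l (of Rps27, a p53 target in human cells).

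The region around the transcription start is shown for 6 of the genes whose level changed at 48 h, and for Rps6 and Rpl28 as 2 that did not pass the test. Rpl3, Rpl21 and Rpl30, which also changed, are not shown. Each line runs 5′ to 3′ from 20 bases before the annotated start to the 30th base of the transcript, from RefSeq on GRCm38.p6, and the capitals mark the longest pyrimidine run that touches the 10 bases on either side of the start.
Rpl22l1 (chr3:28805488-28805537, + strand): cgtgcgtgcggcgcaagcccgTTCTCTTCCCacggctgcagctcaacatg
Rpl4 (chr9:64173367-64173416, + strand): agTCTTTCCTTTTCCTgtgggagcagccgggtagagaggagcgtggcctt
Rpl7a (chr2:26910787-26910836, + strand): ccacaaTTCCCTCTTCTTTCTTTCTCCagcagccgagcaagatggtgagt
Rpl10a (chr17:28328451-28328500, + strand): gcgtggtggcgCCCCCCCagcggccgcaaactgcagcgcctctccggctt
Rps9 (chr7:3704021-3704070, + strand): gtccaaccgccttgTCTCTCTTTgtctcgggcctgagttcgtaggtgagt
Rps27l (chr9:66946066-66946115, + strand): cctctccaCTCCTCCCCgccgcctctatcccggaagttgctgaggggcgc
Rps6 (chr4:86857338-86857387, - strand): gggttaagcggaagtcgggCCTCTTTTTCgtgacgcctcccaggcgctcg
Rpl28 (chr7:4792945-4792994, + strand): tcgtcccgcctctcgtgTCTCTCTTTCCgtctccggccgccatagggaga
The run was 21 bases long in Rpl7a, 14 in Rpl4, 10 in Rpl22l1, 9 in Rps9 and 7 in Rpl10a, which fell, and 9 in Rps27l, which rose, against 10 in Rps6 and 11 in Rpl28, so the lengths overlap. Of the 55 tested genes, 47 matched an entry of the RefSeq table. A run of at least 6 bases was found in 28 of the 47 (59.6%), against 29.1% of all 27025 genes of the table. Such a run need not be a TOP motif, because it may lie before the start and so outside the mRNA. The runs of Rpl4, Rpl10a and Rps27l lie wholly before the annotated start, and that of Rpl22l1 begins at base 2 of the transcript. In the window of 300 bases (250 before the start and 50 from it), searched on both strands, CCGGAAG, a form of the ETS factor motif, occurred in 42.6% of the 47 against 9.12% of all genes. GGGCGG, the core of the GC box, occurred in 63.8% against 35.9%, and TATAAA in 10.6% against 14.2%. A match describes the letters only, and no match says only that these letters are not in this window.

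On the arrays, 15662 to 16824 of 45281 probes were detected (34.6 to 37.2%), and the number of arrays limits the precision. The ribosomal protein genes are among the brightest on the array: 37 of the 55 had a mean signal above 10000, where the highest signal of any probe was 38277 to 48082, and their main probes held 3.89 to 4.79% of the summed signal of an array. Trex1 read 6.22 to 7.19 on the log2 scale in TKO and STKO, against 8.12 to 9.47 in SKO and WT, and Sting1 read 5.06 to 6.01 in SKO and STKO, against 7.80 to 8.12 in TKO and WT. All 11 fibroblast markers were detected on every array. Macrophage markers were present as well, although Ptprc was detected on 0 arrays: their summed level was 11.6 to 12.4 (log2) in TKO, against 13.7 to 15.1 in the other genotypes, and 8 of them fell and 2 rose at 48 h. Whether other cells contribute to the differences below was not tested, and in such bulk samples fewer cells of a type and less RNA per cell cannot be told apart.

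As a group the ribosomal protein genes moved little with DMBA. Levels and differences are normalized log2 signals, a gene is called when limma's adjusted p, over all 18389 tested probes, is under 0.05, and errors of differences are standard errors from limma's model of all 12 arrays. At 24 h after DMBA 1 of the 55 genes fell, where 6.8% of all tested probes rose and 8.84% fell. At 48 h 1 rose and 8 fell, where 19.1% of all tested probes rose and 20.4% fell. The 2 comparisons share the DMSO arrays. In neither direction do the members' counts exceed these shares.

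The median difference of the 55 genes from DMSO was 0.05 at 24 h and -0.01 at 48 h, beside 0.02 and -0.01 over all tested probes. At 24 h 51 of the 55 lay within 0.25 of 0, against 55.8% of all tested probes, and at 48 h 43 of the 55 did, against 41.4%. The median SD of a gene over the 12 arrays was 0.13 for the ribosomal protein genes and 0.30 for all tested probes. Brightness goes with part of this: over the 37 members with a mean signal above 10000 the median SD was 0.111, against 0.163 over the 361 probes of other genes above that signal, a set chosen after the data were seen. Within 0.25 of 0 lay 78.7% of those 361 probes at 24 h and 56.2% at 48 h. Of the 37 bright members 94.6% and 83.8% did. Of those 361 probes 5.82% were called at 24 h and 35.2% at 48 h, and of the 37 bright members 1 was called at 24 h and 4 at 48 h. Among the 18 dimmer members 5 were called at 48 h, so 4 of 9 called members and 33 of 46 others were bright. Whether compression of bright signals plays a part was not tested.

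**Figure D1:**
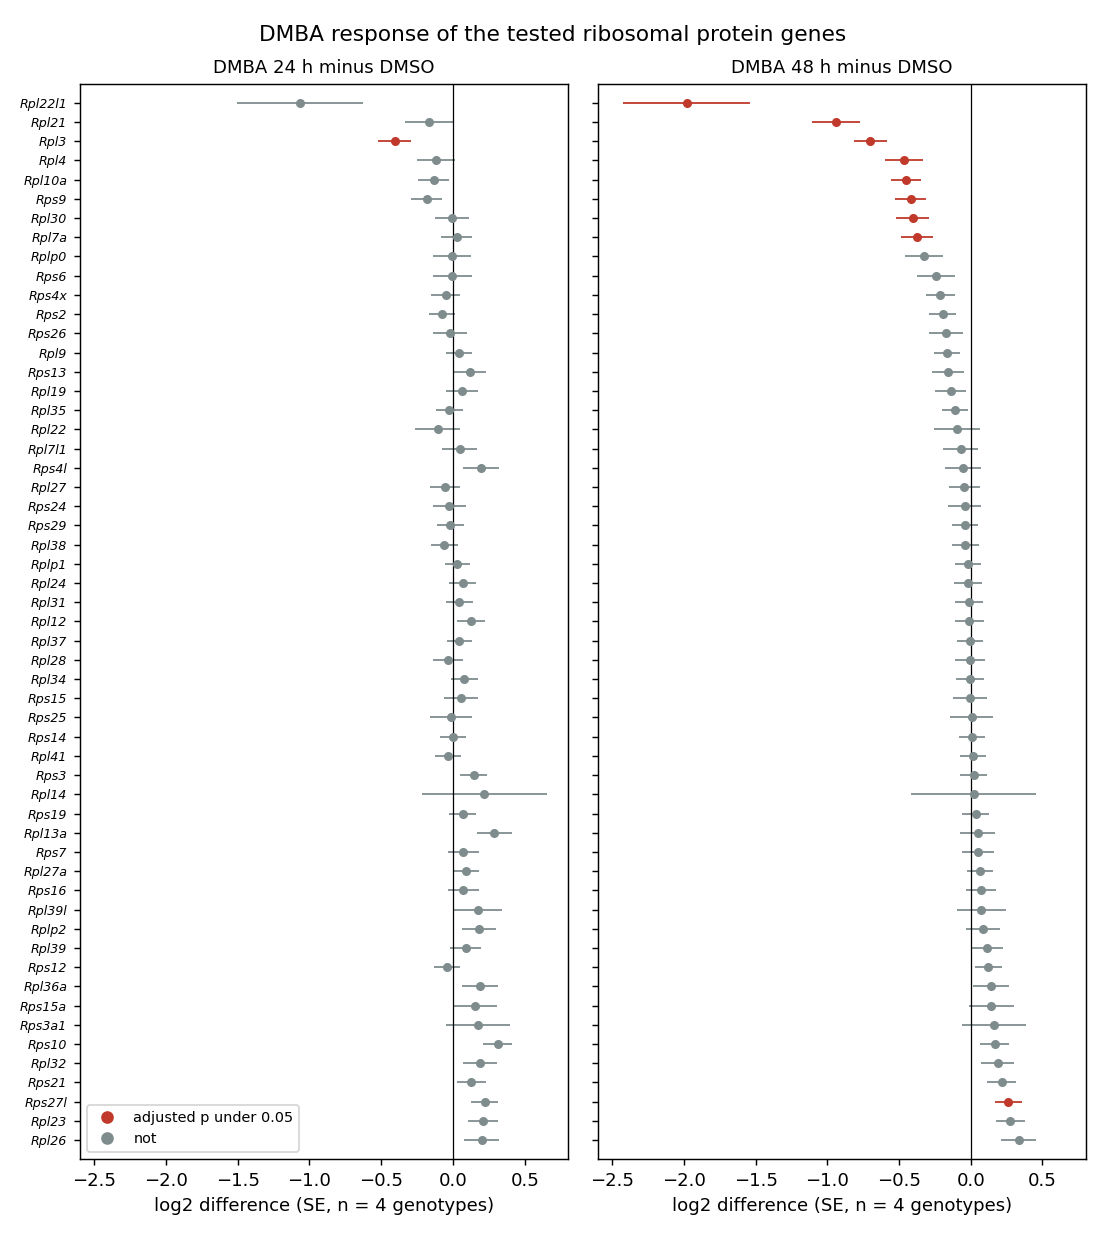
Log2 difference from DMSO of each of the 55 tested ribosomal protein genes after DMBA for 24 h (left) and 48 h (right), with points for the mean of 4 genotypes and bars for the standard error; red marks an adjusted p under 0.05. Most genes lie close to 0 at both times, and the 48 h falls extend from Rpl7a at -0.37 to Rpl22l1 at -1.98.

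The median changes at 48 h were not the same size in each genotype. The median of the 55 genes was -0.05 in TKO, 0.04 in SKO, 0.03 in STKO and -0.13 in WT. Over all tested probes the medians were -0.02 in TKO, -0.01 in SKO, -0.01 in STKO and 0.00 in WT. The number of the 55 genes more than 0.25 below DMSO was 13 in TKO, 5 in SKO, 9 in STKO and 18 in WT. This count was not made over all tested probes, so it cannot be read as particular to these genes. How often each genotype had the smallest or largest fall over all probes is given below. In the large subunit 7 of 33 genes fell, close to the 20.4% of all tested probes that fell, and in the small subunit 1 of 22 fell and 1 rose. The median at 48 h was -0.02 in the large subunit and 0.01 in the small subunit. Whether the subunits differ was not tested.

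The largest change belonged to Rpl22l1, which encodes a paralog of the 60S protein RPL22. Its level under DMSO, at 24 h and at 48 h was 9.23, 7.29 and 7.06 in TKO, 9.31, 10.32 and 8.54 in SKO, 9.60, 8.75 and 7.63 in STKO, and 9.84, 7.36 and 6.83 in WT. All 4 arrays at 48 h lay below all 4 DMSO arrays, and at 24 h the SKO array alone lay above its DMSO array. At 48 h Rpl22l1 fell by 1.98 ± 0.44 (adjusted p = 0.0062), with differences of -2.17 in TKO, -0.77 in SKO, -1.97 in STKO and -3.01 in WT. At 24 h the mean difference was -1.07 ± 0.44 (adjusted p = 0.129), and without the SKO arrays it was -1.76 and passed the test (adjusted p = 0.00482). Rpl22 itself, whose protein represses Rpl22l1 in mice, read 10.36, 9.92 and 9.71 in TKO, 10.44, 10.61 and 10.85 in SKO, 10.17, 10.12 and 10.33 in STKO, and 10.29, 10.17 and 9.97 in WT. It was lower at 48 h in TKO and WT and higher in SKO and STKO, and its mean difference of -0.10 ± 0.16 was not called.

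Rpl3, which encodes a core 60S protein next to the peptidyl transferase centre, fell at both times. It read 14.69, 14.29 and 13.90 under DMSO, at 24 h and at 48 h in TKO, 14.88, 14.54 and 14.52 in SKO, 14.76, 14.31 and 14.07 in STKO, and 14.77, 14.35 and 13.83 in WT. In each genotype both DMBA arrays lay below the DMSO array, and no DMBA array reached the lowest DMSO level. The difference was -0.40 ± 0.11 at 24 h (adjusted p = 0.0413) and -0.70 ± 0.11 at 48 h (adjusted p = 0.00133). The call at 24 h was lost under median scaling (adjusted p = 0.057), without a filter on dim probes (0.0508) and without the WT (0.127), TKO (0.161) or STKO arrays (0.176). The call at 48 h was kept under each of these.

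Rpl21, which encodes another 60S protein, fell on all 3 of its tested probes at 48 h, all of them dim. Its main probe read 7.78, 7.68 and 6.62 in TKO, 7.59, 7.52 and 7.24 in SKO, 7.72, 7.42 and 6.89 in STKO, and 7.83, 7.63 and 6.41 in WT. The 48 h arrays lay below all DMSO and 24 h arrays, with the SKO array closest to them. The difference at 48 h was -0.94 ± 0.17 (adjusted p = 0.00213), and the other 2 probes gave -0.79 ± 0.21 (adjusted p = 0.0128) and -0.50 ± 0.15 (adjusted p = 0.0261). Most of this came after 24 h: the difference between 48 h and 24 h was -0.77 ± 0.17 (adjusted p = 0.0216).

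**Figure D2:**
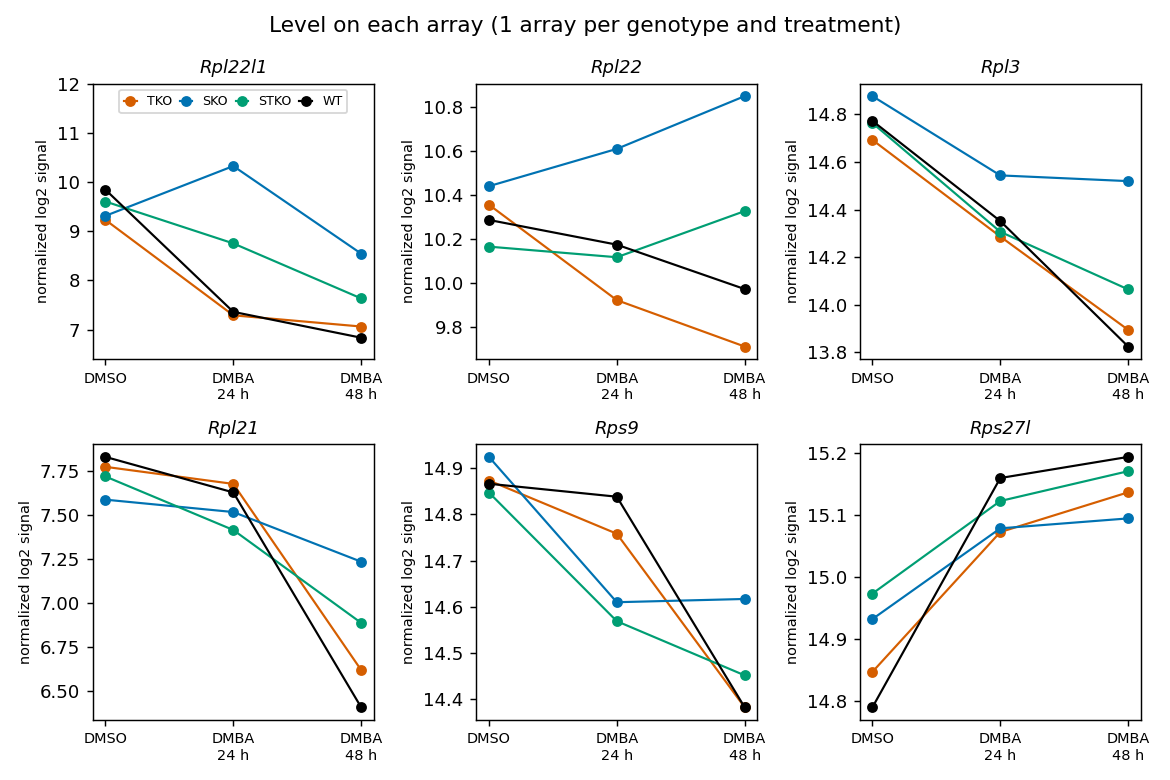
Normalized log2 signal (vertical axes, each with its own range) of 6 ribosomal protein genes on every array under DMSO and after 24 h and 48 h of DMBA; each line joins the 3 arrays of 1 genotype. Rpl22l1, Rpl3, Rpl21 and Rps9 were lower at 48 h in all 4 genotypes, Rps27l was higher in all 4, and Rpl22 was lower in TKO and WT and higher in SKO and STKO.

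A further 4 large subunit genes and 1 small subunit gene fell at 48 h by less. Rpl10a, which encodes a protein of the L1 stalk where deacylated tRNA leaves, read 15.12, 14.93 and 14.52 in TKO, 15.13, 15.17 and 14.96 in SKO, 15.11, 15.06 and 14.70 in STKO, and 15.22, 14.88 and 14.59 in WT. Its 48 h arrays lay below all DMSO arrays, and the difference was -0.45 ± 0.11 (adjusted p = 0.00839). Rpl4, whose long extension lines the exit tunnel of the nascent chain, read 11.43, 11.14 and 10.82 in TKO, 11.53, 11.65 and 11.50 in SKO, 11.44, 11.47 and 11.07 in STKO, and 11.52, 11.19 and 10.68 in WT. In SKO it differed from DMSO by only -0.03, so the groups overlapped, and the mean difference was -0.47 ± 0.13 (adjusted p = 0.019).

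Rpl7a, which encodes a 60S protein, read 12.18, 12.16 and 11.76 in TKO, 12.26, 12.60 and 12.18 in SKO, 12.30, 12.26 and 11.81 in STKO, and 12.30, 12.13 and 11.81 in WT. The 48 h arrays of TKO, STKO and WT lay below all others, and the SKO array at 12.18 lay close to the lowest DMSO array. The difference was -0.37 ± 0.11 from DMSO (adjusted p = 0.0214) and -0.40 ± 0.11 from 24 h (adjusted p = 0.0456). Rpl30, which encodes a 60S protein at the subunit interface, fell by 0.40 ± 0.12 at 48 h (adjusted p = 0.0198), and its dimmer probe differed by -0.33 (adjusted p = 0.102). Its levels are given with the genotypes below.

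Rps9, which encodes a 40S protein near the mRNA entry site, read 14.87, 14.76 and 14.38 in TKO, 14.92, 14.61 and 14.62 in SKO, 14.85, 14.57 and 14.45 in STKO, and 14.87, 14.84 and 14.38 in WT. The 4 DMSO arrays lay between 14.85 and 14.92, above all 48 h arrays. The difference at 48 h was -0.42 ± 0.11 (adjusted p = 0.0111), and its other probe fell by 0.58 ± 0.12 (adjusted p = 0.00525). Rps27l, which encodes the RPS27 paralog, rose at 48 h. It read 14.85, 15.07 and 15.14 in TKO, 14.93, 15.08 and 15.09 in SKO, 14.97, 15.12 and 15.17 in STKO, and 14.79, 15.16 and 15.19 in WT.

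Every DMBA array lay above every DMSO array for Rps27l, by a mean of 0.22 ± 0.09 at 24 h (adjusted p = 0.133) and 0.26 ± 0.09 at 48 h (adjusted p = 0.0469). This call was lost under median scaling (0.21, adjusted p = 0.102) and when any 1 genotype was left out (0.22 to 0.30, adjusted p = 0.0697 to 0.204). Leaving out the WT or TKO arrays also took away the 48 h calls of Rpl4, Rpl7a, Rpl10a, Rpl30 and Rps9, and leaving out STKO those of Rpl4, Rpl7a, Rpl30 and Rps9, while Rpl22l1, Rpl21 and Rpl3 were called in each case. All 8 falls were called without the SKO arrays. Just missing the threshold for a rise at 48 h were Rpl26 at 0.33 ± 0.12 (adjusted p = 0.051) and Rpl23 at 0.28 ± 0.10 (adjusted p = 0.0546). Both passed it without background correction, in the authors' value table, over probes detected on all arrays and with a variance trend and robust prior; Rpl23 also passed under cyclic loess and without a filter on dim probes, and Rpl26 without the WT arrays.

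In all 8 genes that fell at 48 h the SKO cells had the smallest fall, and in 7 of the 8 the WT cells had the largest. Over the 3760 probes of any gene that fell at 48 h, SKO had the smallest change in 54.5% and WT the largest in 37.0%. The rise of Rps27l was likewise smallest in SKO (0.16) and largest in WT (0.40), as it was for 53.4% and 35.3% of the 3517 probes that rose.

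Between 24 h and 48 h 2 genes fell, Rpl21 and Rpl7a with the values above, on main probes, where 5.21% of all tested probes fell and 5.23% rose. Of the 361 bright probes of other genes 9.7% were called in this comparison, and of the 37 bright members 0 were called by limma, with 4 at an unadjusted p under 0.05 and 2, Rpl9 and Rpl10a, past the threshold with a variance trend and robust prior. The median over the 55 genes was -0.08, against -0.01 over all probes, and it was below 0 in each genotype (TKO -0.09, SKO -0.05, STKO -0.08, WT -0.15). Further probes of 4 genes also fell: 1 of Rpl30 by 0.78 ± 0.15 (adjusted p = 0.0123), 1 of Rps24 by 0.71 ± 0.12 (adjusted p = 0.00938), 1 of Rps9 by 0.55 ± 0.12 (adjusted p = 0.0244) and 1 of Rpl21 by 0.54 ± 0.15 (adjusted p = 0.0495). On main probes, leaving out 1 genotype left 0 or 1 call, and without STKO, TKO or WT both calls were lost.

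The probes of 1 gene did not always move together. The 55 genes had 24 further tested probes, on 17 genes, of which 5 fell at 48 h and 0 rose by limma: 2 of Rpl21, 1 of Rps9, 1 of Rpl38 and 1 of Rps24. For Rpl38, which encodes a 60S protein needed in mice for translation of Hox mRNAs, a probe with a mean signal of 1830 fell by 0.46 ± 0.10 (adjusted p = 0.00472), and the main probe differed by -0.04. For Rps24, which encodes a 40S protein mutated in Diamond-Blackfan anaemia, a probe with a mean signal of 935 fell by 0.62 ± 0.12 (adjusted p = 0.00363), and the main probe also differed by -0.04. That Rps24 probe read 9.90, 10.12 and 9.35 in TKO, 9.96, 10.12 and 9.71 in SKO, 10.01, 9.87 and 9.16 in STKO, and 9.88, 10.01 and 9.04 in WT, so that its 48 h arrays lay below all others. At 48 h the dimmer probe of Rpl4 went the other way from its main probe, at 0.21, and was not called.

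Of the 12 dimmer probes on 8 genes whose main probe is above 10000, 2 fell at 48 h, with a median of -0.15 against -0.01 for the main probes of the same genes. Which transcript or copy a probe reads was not tested: many ribosomal protein genes have near-identical processed copies in the genome, so each probe's signal may be shared with them and its gene is uncertain to that extent.

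**Figure D3:**
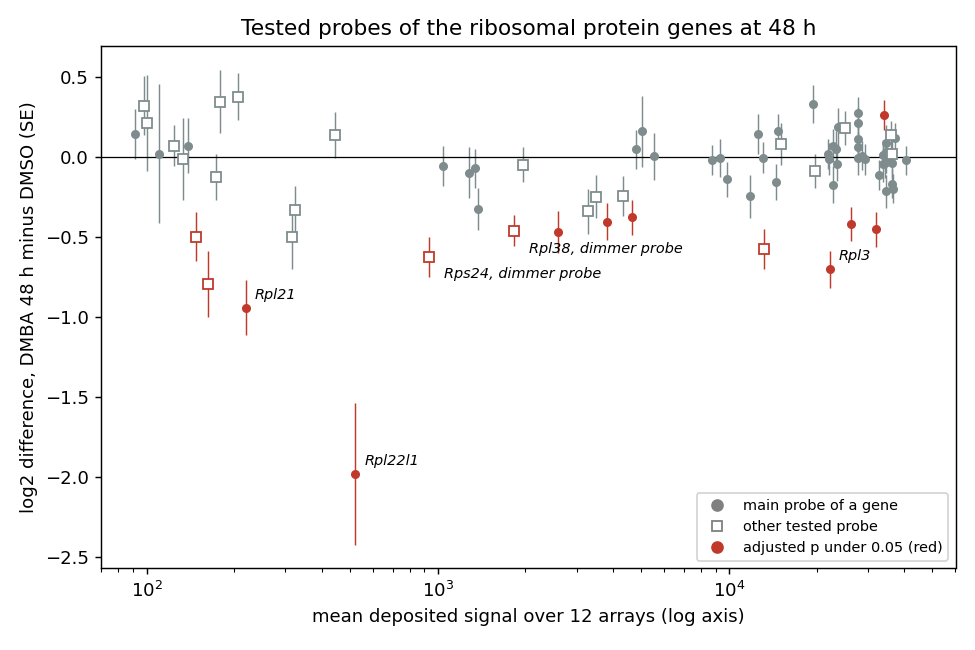
Log2 difference at 48 h of DMBA from DMSO (vertical axis, bars are standard errors) against the mean deposited signal over 12 arrays (horizontal axis, log scale) for the 79 tested probes of the ribosomal protein genes. Filled circles are main probes and open squares other probes, and red marks an adjusted p under 0.05; beyond a signal of 10000 most probes lie within 0.25 of 0, and the dimmer Rps24 and Rpl38 probes lie at -0.62 and -0.46.

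By role, the P stalk, which recruits the GTPase translation factors, had 0 of 3 genes called at 48 h by limma: Rplp0 differed by -0.32 (adjusted p = 0.0768), Rplp1 by -0.02 and Rplp2 by 0.09. Rplp0 was at an unadjusted p under 0.05, and 0 of the 3 passed with a variance trend and robust prior. Of the 4 tested paralogs Rps27l rose and Rpl22l1 fell, while Rpl39l (0.07) and Rpl7l1 (-0.07) were not called. Of a list of 8 genes whose human proteins bind MDM2, 5 were tested, and the list need not hold every such gene. Of those 5, Rps27l rose, and Rpl23 (0.28, called with a variance trend and robust prior), Rps7 (0.05), Rps3 (0.02) and Rps14 (0.01) were not called. Of a list of 9 genes mutated in Diamond-Blackfan anaemia, an inherited failure of red cell production, 5 were tested. The list need not hold every such gene. Of its 5 tested genes 0 were called by limma on their main probes and 0 had an unadjusted p under 0.05. With a variance trend and robust prior 0 of the 5 passed. Rps10 differed by 0.17, Rps19 by 0.03, Rps7 by 0.05, Rps24 by -0.04 and Rps26 by -0.17. Rps6, whose protein is phosphorylated downstream of mTOR, differed by -0.24 (adjusted p = 0.18), and Rpl13a, whose protein can leave the ribosome to block translation of inflammatory mRNAs in human cells, by 0.05.

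At 24 h the members with the smallest p after Rpl3 were Rps10 (0.31 ± 0.10, adjusted p = 0.0635), Rpl22l1, Rps27l and Rpl13a (0.29 ± 0.12, adjusted p = 0.139). Rps10 was higher at 24 h in all 4 genotypes, at 13.88, 14.10, 14.13 and 13.82 in TKO, SKO, STKO and WT, against 13.64, 13.73, 13.66 and 13.64 under DMSO. It passed the threshold without background correction, in the authors' value table, without a filter on dim probes and with a variance trend, and so its call depends on these settings.

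Between genotypes few of these genes differed, and the 3 comparisons share the WT arrays. In TKO Rpl30 was higher than in WT, where 2.22% of tested probes were higher and 2.99% lower; Rps15a was also called, but it entered the test only through its TKO arrays and is left out of this count. In SKO 1 was higher, where 2.84% of probes were higher and 3.7% lower, and in STKO 1 was higher, where 1.94% were higher and 2.74% lower. The median difference from WT was -0.01 in TKO, 0.06 in SKO and 0.04 in STKO, beside 0.01, 0.02 and 0.02 over all tested probes.

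Rpl30 was higher in TKO and SKO than in WT. Its main probe read 12.13, 12.13 and 11.79 under DMSO, at 24 h and at 48 h in TKO, 12.02, 12.09 and 11.79 in SKO, 12.10, 12.01 and 11.80 in STKO, and 11.69, 11.68 and 10.93 in WT. The 3 WT arrays lay below all 9 arrays of the knockouts, which lay between 11.79 and 12.13. The difference from WT was 0.59 ± 0.13 in TKO (adjusted p = 0.0327), 0.53 ± 0.13 in SKO (adjusted p = 0.0433) and 0.54 ± 0.13 in STKO (adjusted p = 0.0513). Its dimmer probe differed by 0.03 in TKO, 0.43 in SKO (adjusted p = 0.174) and 0.16 in STKO, so the 2 probes did not show the same difference. The WT arrays also stood apart in Eif2s3y, a Y-linked gene, which read 9.20 to 9.62 in WT and was not detected on the 9 other arrays, and the part of such differences between cultures was not tested.

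Rpl39l, the testis-enriched paralog of Rpl39, was dim and detected on 11 arrays. It read 5.65, 5.45 (not detected) and 6.01 in TKO, 6.51, 6.94 and 6.69 in SKO, 6.80, 7.06 and 6.98 in STKO, and 6.14, 6.34 and 5.71 in WT. All SKO and STKO arrays lay above all TKO and WT arrays. The difference from WT was 0.88 ± 0.20 in STKO (adjusted p = 0.0336), 0.65 ± 0.20 in SKO (adjusted p = 0.0853) and -0.36 ± 0.20 in TKO (adjusted p = 0.488).

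Rps15a, which encodes a 40S protein, was detected on 3 arrays, all of them TKO, at 5.78, 6.22 and 5.78, which is just inside the rule's limit of 2 arrays. It passed the detection filter only through the genotype in which it is high, so these values are a description with no test. It was at least 1.2-fold higher in TKO than in WT, where it was not detected (measured means 5.93 in TKO and 5.17 in WT), at least 1.15-fold higher than in SKO and at least 1.1-fold higher than in STKO. Rpl14 was the other gene near that limit, with 4 arrays. Each genotype call of Rpl30 and Rpl39l was lost when the arrays of any 1 treatment were left out (adjusted p = 0.0641 to 0.297).

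A dimmer probe of Rps13, with a mean signal of 125, also separated the genotypes. It read 7.45, 7.87 and 7.42 in TKO and 5.72, 5.90 and 5.80 in WT, and was not detected on the 6 SKO and STKO arrays. The difference between TKO and WT was 1.77 ± 0.15 (adjusted p = 8.19e-05), and TKO was at least 3.63-fold higher than SKO and at least 3.46-fold higher than STKO. The main probe of Rps13, which encodes a 40S protein, differed by 0.05 between TKO and WT. The dimmer Rps13 probe was the only one of the 24 further probes called between a knockout and WT.

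**Figure D4:**
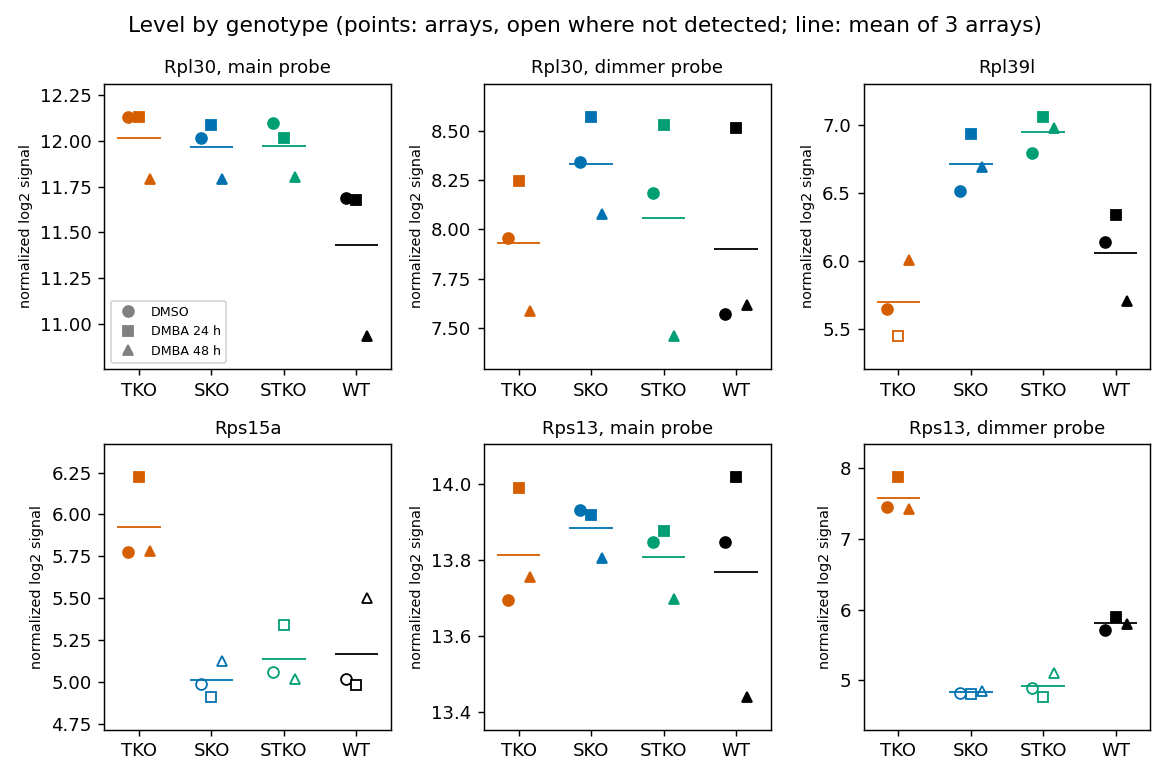
Normalized log2 signal (vertical axes, each with its own range) of 4 ribosomal protein genes by genotype, with a second probe for Rpl30 and Rps13; circles, squares and triangles are the DMSO, 24 h and 48 h arrays, open where the probe was not detected, and lines are means of 3 arrays. The main Rpl30 probe is lowest in WT, Rpl39l is highest in SKO and STKO, and Rps15a and the dimmer Rps13 probe are highest in TKO.

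Whether the DMBA response depended on STING was tested with limma by setting the mean DMBA response of the genotypes without STING (SKO, STKO) beside that of the genotypes with it (TKO, WT). The differences given here are the response with STING minus the response without it, so a value below 0 means a lower response where STING was present. By limma 0 of the 55 genes were called on their main probes, where 6.1% of all tested probes were. At an unadjusted p under 0.05 were 9 of the 55 members, beside 4987 of the 18389 tested probes. With a variance trend and robust prior 7 of the 55 passed, beside 11.8% of all tested probes. Rpl14 is in both counts of members and, given the arrays on which it was detected (below), is no support for a difference. The smallest p belonged to Rpl22l1, with a difference of -1.76 ± 0.47 (adjusted p = 0.064). Next by p was Rpl14, for which no difference is given: it was detected on both SKO arrays with DMBA, the STKO array at 24 h and the WT array under DMSO, and so on 0 of the 4 DMBA arrays with STING. The difference was for Rpl22 -0.55 ± 0.16 (adjusted p = 0.081), for Rps3a1 -0.72 ± 0.24 (adjusted p = 0.112) and for the main probe of Rpl4 -0.46 ± 0.16 (adjusted p = 0.113). The dimmer probe of Rpl4, with a mean signal of 101, was called by limma at -1.31 ± 0.28 (adjusted p = 0.0391). Its detection on each array was not examined. The call of Rpl22l1 depended on the settings: it passed under median scaling (adjusted p = 0.0479), without background correction (0.0356), in the authors' value table (0.0357), over probes detected on all arrays (0.0404) and without the STKO arrays (0.0331), and its adjusted p reached 0.267 without the SKO arrays. The difference was below 0 for 38 of the 55 genes, Rpl14 among them, with a median of -0.09 against 0.00 over all probes. Over the 37 bright members the median was -0.08, against -0.02 over the 361 bright probes of other genes.

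In 3 of the 55 genes (5.45%) every DMBA array moved one way in the genotypes without STING and the other way in those with it, against 2.53% of all tested probes. On the main probe of Rpl7l1 the differences from DMSO were -0.36 to -0.10 without STING and 0.02 to 0.32 with it. For Rpl19 they were 0.03 to 0.25 without STING and -0.36 to -0.04 with it. On the main probe of Rpl28 they were 0.03 to 0.16 without STING and -0.24 to -0.02 with it. The dimmer probes of Rpl7l1 and Rpl28 did not show opposite signs. At 48 h that of Rpl7l1 differed from DMSO by 0.31 in TKO, 0.75 in SKO, 0.41 in STKO and 0.05 in WT. That of Rpl28 differed by -0.87, -0.07, -0.06 and -0.98 in the same order. On the main probes the differences between the responses with and without STING did not pass the test (adjusted p = 0.117 to 0.26). The same test for Trex1 gave 0 calls by limma among the 55 genes and 0% of all tested probes, 0 members at an unadjusted p under 0.05 and 0 with a variance trend and robust prior. The smallest p belonged to Rpl39 (-0.23 ± 0.20, adjusted p = 1).

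Genes that work with the ribosomal proteins were read beside them at 48 h, on lists that were chosen with earlier results of these data known. Of 15 tested translation factors and other genes with TOP starts 6 fell and 1 rose, with a median of -0.27. Hnrnpa1, an RNA-binding splicing factor, fell by 0.96 ± 0.16, Nap1l1, a histone chaperone, by 0.46 ± 0.12 and Eef1d, an elongation factor subunit, by 0.41 ± 0.10. Pabpc1, the cytoplasmic poly(A)-binding protein, rose by 0.44 ± 0.12. In the test of STING, Eif3h, a subunit of an initiation factor, differed by -1.22 ± 0.20 (with STING minus without it, adjusted p = 0.0226).

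Of 10 tested genes of RNA polymerase I transcription, which makes ribosomal RNA, 3 fell and 1 rose: Ubtf fell by 0.41 ± 0.11 and the initiation factor gene Rrn3 rose by 0.55 ± 0.13. Of 32 tested ribosome assembly genes 5 fell and 3 rose, among them Ncl (nucleolin), which fell by 0.52 ± 0.11, and Nop10, a component of the RNPs that pseudouridylate ribosomal RNA, which rose by 0.74 ± 0.15. Of 20 tested genes of growth control 4 fell and 3 rose. The 3 that rose were Sesn2 (0.73 ± 0.11) and Ddit4 (0.62 ± 0.12), both inhibitors of mTOR signalling, and Mxd1 (0.76 ± 0.18), an antagonist of MYC, and Depdc5, which acts against mTORC1 as well, fell by 0.64 ± 0.14. Of 72 tested mitochondrial ribosomal protein genes 14 fell and 6 rose, with a median of -0.08. The 48 h calls named here are from limma, with adjusted p between 0.00101 and 0.0166, and the share of a list that rose or fell reads against 19.1% and 20.4% of all probes.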

How the data were processed

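Per the labels' protocols, RNA was extracted with an RNeasy kit, checked on a Bioanalyzer, and labelled as biotin cRNA with the MessageAmp kit. For the scanner and its software, the sources used here give no name. The deposited signals are linear intensities, not normalized between arrays. The deposited detection column is a score headed as a p-value, per the file headers, but bright probes hold values near 1 (Spearman correlation with the signal 0.98 to 0.99), so 1 minus the score was used as the p. The authors' value table holds log2 values, which equal centred, quantile-normalized log2 signals to within 0.0062, and served as an alternative. Of 45281 probes 34885 had 1 symbol in the platform annotation, 18 several and 10378 none.

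Normalization was done with neqc of limma 3.58.1 (R 4.3.3), which corrects the background, adds an offset (16 here), quantile normalizes and takes log2. The 18389 probes that were tested had a p under 0.01 on 2 arrays or more. Genotype and treatment entered an additive limma model (6 residual degrees of freedom), and dependence on STING or Trex1 was an interaction (4 residual degrees of freedom), with Benjamini-Hochberg adjustment over all tested probes. The fits were tested on simulated data. "At least" folds set the mean of the bright genotype against the lowest detected signal of each dim array. Alternatives were other scalings, background, detection and probe rules, the variance trend and leaving out a genotype or treatment. Genes were named by call and size of change (up to 8 a direction by treatment, 5 by genotype), or the 5 of smallest p, with role lists; further probes that were called, and the 3 genes of opposite sign by STING, were named after their values were seen. The members and lists were chosen with earlier results of these data known. Gene starts and sequences are from RefSeq on GRCm38.p6.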

Additional observations from a re-analysis of the deposited data

Results flagged for a closer look

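Of 15 treatment results of named genes that were examined for 1 genotype far from the other 3, Rpl7a at 48 h stood out: its difference from DMSO was -0.0875 in SKO, against -0.49 to -0.43 in TKO, STKO and WT. The gap between SKO and the nearest other genotype took up 0.839 of the range of the 4 values. Chance flags about 1 in 20 such groups. The cause was not tested.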

How the results depend on the processing

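Under the alternatives 0 called values changed sign. Counts of called genes that moved by over 1.5 times are given here; the setting of members with signals under 10000 holds 15 of the 55 genes, so its counts are lower in part by construction. At 24 h, 1 call became 0 under median scaling, 2 without background correction and 2 in the authors' value table, 0 among members with signals under 10000, 3 with a variance trend and robust prior, and 0 to 2 with 1 genotype left out. At 48 h, 9 calls became 5 among members with signals under 10000, 15 with the variance trend, 3 to 8 with 1 genotype left out, and 8 to 11 under the other settings. Between 48 h and 24 h, 2 calls became 1 under median scaling, 1 under cyclic loess, 5 with the variance trend and 0 to 1 with 1 genotype left out. In TKO against WT, 2 calls (Rps15a included) became 1 under median scaling, without background correction, in the value table, without a filter on dim probes, among probes detected on all 12 arrays and with the variance trend, and 0 with any treatment left out. In SKO, 1 call became 0 without the filter and 0 to 3 with 1 treatment left out, the 3 with Rpl14 included. In STKO, 1 call became 0 under median scaling and without the filter, 2 under cyclic loess, without background correction, in the value table and with the variance trend, and 0 with any treatment left out. For dependence on STING, 0 calls became 1 under median scaling, among probes detected on all 12 arrays and over gene means. They became 3 without background correction and in the value table and 7 with the variance trend, each with Rpl14 included. With 1 genotype left out they were 0 to 1.

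Medians over the members moved among those with signals under 10000 to -0.24 between 48 h and 24 h, 0.36 in SKO against WT, -0.28 for STING and 0.0669 for Trex1. Under median scaling they moved to -0.18 for STING and -0.0768 in TKO against WT, and with 1 genotype left out the Trex1 median ran between -0.0614 and 0.0741. Median scaling in place of quantile normalization changed the share of higher among called probes of all genes from 50.1% to 69.1% between 48 h and 24 h, and took it to 32.3% in SKO (quantile 43.4%), 29.6% in STKO (41.5%) and 30.6% for STING (47.8%). Among single values of named genes, 40 lost and 4 gained a call with a genotype or treatment left out and 117 kept their side of the threshold; under the other alternatives 14 lost, 20 gained and 269 kept theirs. The causes were not tested. Treatments were compared within genotypes and genotypes within treatments throughout, as the model has both terms. With a block by replicate number, no paired analysis was possible because each genotype and treatment has 1 array.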
